A study of Mus musculus with 23 samples.

Results

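Described here are 33 mouse genes of the oligodendrocyte lineage and of myelin, out of the 54232 gene identifiers counted in bulk RNA of the hippocampus. The genes were taken by name, as a set that runs from the precursor stage to mature myelin. All 33 were found by symbol, and all 33 passed the filter on low counts in both cohorts. The 23 libraries were of C57BL/6 mice in 7 groups. At 9 months of age there were 4 wild-type libraries (WT), 4 of mice with the P301S mutant human tau transgene of the PS19 line (PS19), 4 of PS19 mice that were also heterozygous for Lsd1, labelled Lsd1Δ/+ (PS19_Lsd1het), and 2 of Lsd1Δ/+ mice without the transgene (Lsd1het). At 11 months each hippocampus had been injected with an adeno-associated virus (AAV) that is expressed in neurons. The HA virus served as control in 3 wild-type libraries (WT_HA) and in 3 from PS19 mice (PS19_HA), and 3 further PS19 libraries had the LSD1 virus, labelled as rescue (PS19_LSD1). The PS19_HA and PS19_LSD1 mice had both wild-type copies of Lsd1. The gene Kdm1a encodes LSD1, which demethylates histones, and PS19 is a widely used model of tau pathology. The labels name neither the deleted part of Lsd1 nor the promoter of the transgene, and do not say that the libraries of a group came from separate animals, so p-values measure the spread between these libraries, which may be technical.

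Oligodendrocytes wrap axons in myelin, and they arise throughout life from precursor cells that carry the receptor PDGFRA and the proteoglycan NG2. Precursors that leave the cycle pass through a short premyelinating stage before the transcription factor MYRF, acting with SOX10, switches on the genes of the myelin sheath. The hippocampus itself holds moderate amounts of myelin, while the fimbria and the overlying white matter are rich in it. In bulk tissue, a lower level of a gene can come from fewer cells of a type or from less RNA per cell, and these cannot be told apart.

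Promoter sequences of 3 myelin genes and of 1 precursor gene are shown here, since the same pair of factors is known to act on many myelin genes. Of the 33 members, 24 had an entry in the RefSeq table of promoters (GRCm38.p6), with 32 windows of 250 bases before a start site. A SOX-type motif (ACAAAG) and a MYRF-type motif (CTGGCAC or CTGGTAC) were searched on both strands. Capitals mark the matches, and each sequence is written 5′ to 3′ on the strand of its gene. The Cnp sequence (chr11:100574689-100574903, + strand) has its last 35 bases and the Mag sequence (chr7:30914874-30915113, - strand) its last 10 bases left off, because they lie inside the annotated gene. Mog is at chr17:37023399-37023648 (- strand) and Pdgfra at chr5:75152001-75152250 (+ strand).
Cnp: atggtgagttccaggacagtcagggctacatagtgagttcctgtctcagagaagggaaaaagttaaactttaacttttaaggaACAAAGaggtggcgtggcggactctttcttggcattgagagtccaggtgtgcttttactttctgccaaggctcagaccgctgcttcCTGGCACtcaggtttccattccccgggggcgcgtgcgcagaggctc
Mag: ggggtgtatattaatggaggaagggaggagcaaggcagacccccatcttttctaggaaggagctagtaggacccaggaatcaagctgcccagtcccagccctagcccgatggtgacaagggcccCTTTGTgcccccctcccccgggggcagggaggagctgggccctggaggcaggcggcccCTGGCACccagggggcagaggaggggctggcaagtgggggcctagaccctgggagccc
Mog: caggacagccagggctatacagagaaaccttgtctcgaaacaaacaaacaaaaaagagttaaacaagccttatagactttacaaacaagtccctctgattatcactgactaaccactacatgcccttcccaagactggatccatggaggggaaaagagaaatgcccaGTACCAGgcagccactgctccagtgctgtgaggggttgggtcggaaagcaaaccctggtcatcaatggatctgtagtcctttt
Pdgfra: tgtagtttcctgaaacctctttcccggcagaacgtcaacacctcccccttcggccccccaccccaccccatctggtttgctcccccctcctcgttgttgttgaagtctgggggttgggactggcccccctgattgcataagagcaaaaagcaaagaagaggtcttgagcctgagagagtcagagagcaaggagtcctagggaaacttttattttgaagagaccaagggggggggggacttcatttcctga

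The Cnp window held an ACAAAG match 167 bases and a CTGGCAC match 81 bases before the RefSeq start. In the Mag window, the one with the most matches of its 3, the SOX-type motif was read as CTTTGT on the gene's strand at 126 bases and CTGGCAC lay at 68 bases. The Mog window held the MYRF-type motif as GTACCAG at 83 bases, and the Pdgfra window held neither. Among the windows of members, 9 of 32 had an ACAAAG match, in 7 genes, against 16.5% of all 32851 windows of that length. A MYRF-type match was found in 5 of 32, in Cnp, Lpar1, Mag and Mog, against 5.93% of all windows. The 3 myelin genes shown are thus among the 4 members with this match. Other mature members with windows, such as Cldn11, Mal and Ermn, held neither motif, so the contrast with Pdgfra reflects which genes were shown. The E-box CAGCTG, a core bound by OLIG proteins among many others, was found in 3 of 32, in Aspa and Gsn, against 13% of all windows. These are matches of letters, not sites shown to be bound.

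Libraries held 15451494 to 24644977 counted reads. Kdm1a stood at 51.4 to 61.4 CPM (counts scaled to a common library size) in WT and 48.7 to 61.6 in PS19. It was at 35.4 and 36.4 CPM in the Lsd1het pair and at 35.5, 35.2, 56.5 and 45.1 CPM in PS19_Lsd1het replicates 1 to 4, so the third of these, the library labelled PS19_Lsd1het replicate 3, was within the WT range. In PS19_LSD1 it ranged from 1727 to 10808 CPM, against 60.5 to 66.2 in the other 11-month libraries. The share of mitochondrial genes was 2.86% to 6.04% of the counts in 20 libraries, and in the remaining 3 it was 33.9% (WT replicate 3), 16.1% (PS19 replicate 3) and 16.2% (WT_HA replicate 2). Sex-linked genes read as male in all 14 libraries at 9 months, and at 11 months both sexes were present in each group. The biological coefficient of variation over all genes was 0.423 at 9 months and 0.243 at 11 months.

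Every member had reads in every library, with CPM scaled by the trimmed mean of M values (TMM) over all 23 libraries. Nkx2-2 was the lowest, at 2.83 to 9.71 CPM, and Mbp the highest, at 879 to 3813 CPM. Per kilobase of exon, the WT mean was highest for Mbp (212 CPM per kb), followed by Mobp (124), Plekhb1 (76.7), Car2 (76) and Mal (68.1), and lowest for Nkx2-2 (1.74) and Enpp6 (1.77). Mbp, the myelin basic protein that holds the cytoplasmic faces of the sheath together, alone made up 17.7% to 47% of the members' summed CPM. That sum was 4927 ± 234 CPM for WT and 6767 ± 1108 for PS19, while PS19_Lsd1het had 6658 ± 789 (SD, n = 4 for all of these) and Lsd1het 6073 ± 1449 (SD, n = 2). At 11 months WT_HA had 4072 ± 1041 CPM and PS19_HA had 5996 ± 881 (SD, n = 3 for both), and PS19_LSD1 libraries ran from 4503 to 7930. The Schwann cell list, for the myelin cells of peripheral nerve, summed to only 18.8 to 42.9 CPM over 5 genes. Opalin and Mog, which mark the oligodendrocytes of the central nervous system, had reads in every library.

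The first question was whether the tau transgene went with a different level of these genes at 9 months. In PS19 all 33 members had a higher fitted level than in WT, with a median log2 difference of 0.35, against a share of 46.5% of all 20122 genes tested and a median of -0.02 over all genes. The precursor markers Pdgfra and Cspg4 differed by 0.07 and 0.24. The mature genes all lay above Pdgfra and spread on both sides of Cspg4. They ran from 0.10 for Car2, 0.13 for Gjc3 and 0.14 for Aspa to 0.71 for Mag and 1.29 for Gsn. None of the 33 was called by the quasi-likelihood test of edgeR (adjusted p from 0.396 to 1), where 0.00497% of all genes were called, or by DESeq2, where 0.949% were. Before adjustment, 5 members had p under 0.05 by edgeR and 5 by DESeq2, against 3.91% and 4.49% of all genes. Those were Myrf, Mog, Cldn11, Trf and Gsn. Of the members, 2 (Mog and Cldn11) had every PS19 library above every WT library, which held for 1% of all genes.

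**Figure D1:**
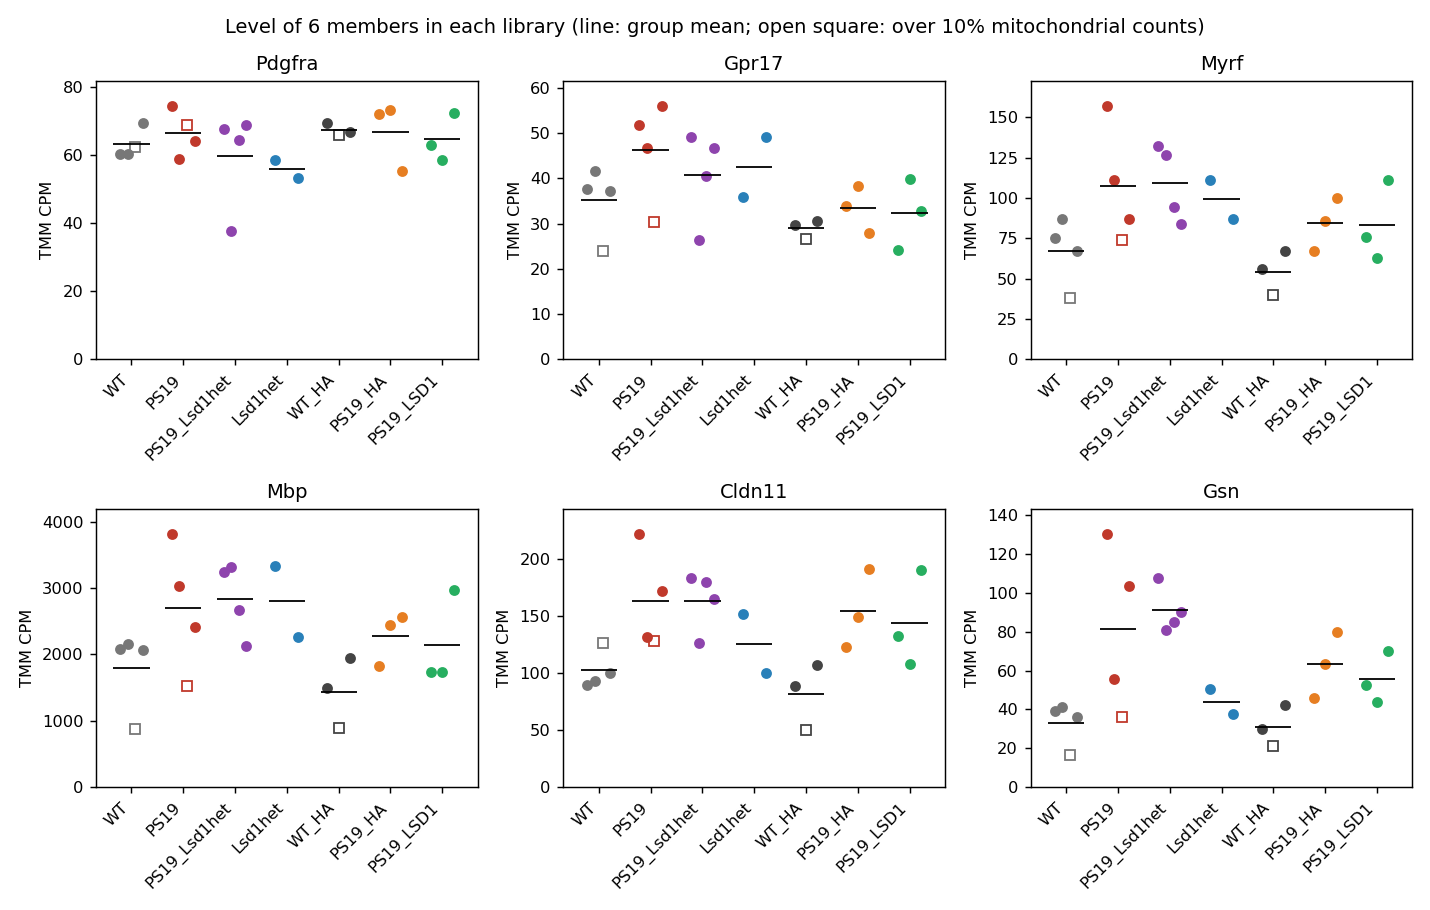
TMM CPM (vertical axes) of Pdgfra, Gpr17, Myrf, Mbp, Cldn11 and Gsn in each library, by group, with lines at group means and open squares for the 3 libraries with over 10% mitochondrial counts. Pdgfra lies between 37.7 and 74.3 CPM in all 23 libraries, and both Lsd1het libraries, 53.2 and 58.6, are below the 4 WT libraries, while Gsn lies between 16.3 and 41.2 CPM in WT, 36.1 and 130 in PS19, and 81 and 107 in PS19_Lsd1het.

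Gsn encodes gelsolin, an actin-severing protein abundant in myelinating oligodendrocytes (ENSMUSG00000026879, chromosome 2, 35256380 to 35307892, GRCm38). It read 39.2, 41.2, 16.3 and 36 CPM in WT replicates 1 to 4 and 130, 55.6, 36.1 and 104 CPM in PS19. The groups overlapped by the single PS19 replicate 3, which lay at the WT level and is 1 of the libraries rich in mitochondrial reads. The log2 difference was 1.29 (SE 0.37), or 2.45-fold, with an edgeR adjusted p of 0.396 and a DESeq2 adjusted p of 0.0842. Cldn11 encodes the claudin of the tight junctions between myelin layers (ENSMUSG00000037625, chromosome 3, 31149920 to 31164324). Its values were 89.8, 93.4, 126 and 101 CPM in WT and 222, 132, 128 and 172 in PS19. The groups did not overlap, though WT replicate 3 came within a few CPM of PS19 replicate 3. Its log2 difference was 0.67 (SE 0.23; edgeR adjusted p = 0.654).

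Mog encodes a glycoprotein of the outermost sheath surface (ENSMUSG00000076439, chromosome 17, 37010743 to 37023398). It read 31.1, 28.2, 34.5 and 37.5 CPM in WT and 46.8, 45.5, 37.8 and 52.4 in PS19, with PS19 replicate 3 only just above the highest WT library. The log2 difference was 0.47 (SE 0.20; edgeR adjusted p = 1). Trf encodes transferrin, which carries iron and is made in the brain largely by oligodendrocytes. It read 9.19, 13.8, 11.2 and 8.43 CPM in WT and 28, 14.7, 11.5 and 17.6 in PS19, a log2 difference of 0.76 (SE 0.31; edgeR adjusted p = 1), with overlap at PS19 replicate 3. Of the bases of Trf exons, 63.5% also lie in exons of the predicted gene Gm20425 on the same strand, and how shared reads were counted is not given in the sources used here, so the level of Trf is uncertain.

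By stage, the medians were 0.35 for the lineage factors, 0.33 for the differentiating genes and 0.35 for the mature genes, and no difference between stages was tested. Pdgfra read 60.4, 60.2, 62.2 and 69.5 CPM in WT and 74.3, 58.8, 68.7 and 64.2 in PS19, which overlap almost completely. Cspg4, which encodes NG2, differed by 0.24, and the lineage factors Olig1, Olig2 and Sox10, present from precursor to mature cell, by 0.34, 0.27 and 0.46. Gpr17, a receptor of the premyelinating stage, read 37.7, 41.6, 24 and 37.1 CPM in WT and 51.6, 46.7, 30.3 and 55.8 in PS19, again with the third library of each group lowest. Bcas1, Enpp6, Itpr2 and Nkx2-2, the other 4 genes of that stage, differed by 0.23 to 0.48. Myrf and Nkx6-2, transcription factors of myelination, differed by 0.68 and 0.83. Among the 12 genes of compact myelin and its membranes the range was 0.13 (Gjc3) to 0.71 (Mag), and among the 9 lipid enzymes and other mature genes it was 0.10 (Car2) to 1.29 (Gsn). Mbp read 2086, 2150, 879 and 2068 CPM in WT and 3813, 3025, 1523 and 2414 in PS19, and only PS19 replicate 3 lay below WT libraries.

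Mean log2 levels of the stages per library showed the spread behind these differences. The 21 mature genes averaged 6.18 ± 0.19 in WT and 6.62 ± 0.18 in PS19 (SD, n = 4 each), and every PS19 library, from 6.41 to 6.77, lay above the highest WT library at 6.35. The 2 precursor genes averaged 5.18 ± 0.43 and 5.36 ± 0.36, with partial overlap, from 4.53 to 5.44 in WT and from 4.85 to 5.70 in PS19. Mature minus precursor was 1.00 ± 0.58 for WT and 0.95 ± 0.29 for Lsd1het, and with the transgene 1.26 ± 0.33 for PS19 and 1.35 ± 0.34 for PS19_Lsd1het. At 9 months the group means differed by less than the SD of WT, which replicate 3 widened. In WT, replicate 3, rich in mitochondrial reads, was at 1.80, and replicates 1, 2 and 4 were at 0.56, 0.60 and 1.03. PS19 replicates 1 to 4 were at 1.07, 0.93, 1.68 and 1.36. Those of PS19_Lsd1het were at 1.04, 1.75, 1.51 and 1.08, all above WT replicates 1, 2 and 4. At 11 months WT_HA was at 0.75 ± 0.30, PS19_HA at 1.32 ± 0.53 and PS19_LSD1 at 1.21 ± 0.44 (SD, n = 3 for all). With only 2 precursor genes the index followed Cspg4, which read 8.51 CPM in WT replicate 3 and 23 to 31.1 in the other WT libraries.

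**Figure D2:**
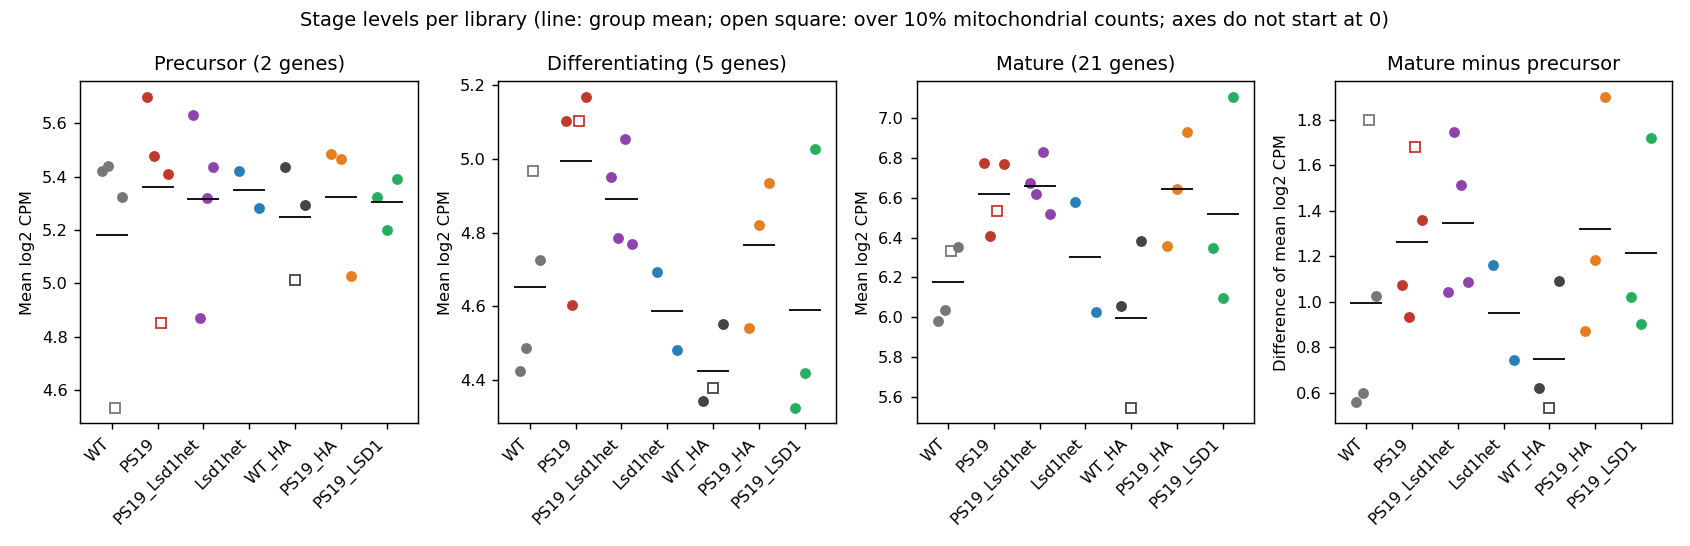
Mean log2 CPM of the precursor, differentiating and mature members in each library (points), and mature minus precursor, by group, with lines at group means, open squares for the libraries with over 10% mitochondrial counts, and axes that do not start at 0. Mature levels of the 4 PS19 libraries, 6.41 to 6.77, lie above the 4 WT libraries, 5.98 to 6.35, while precursor levels overlap in all groups.

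The same question was asked at 11 months in mice with the HA virus. In PS19_HA 32 of 33 members were higher than in WT_HA, with a median log2 difference of 0.47, against 50.5% of all 19290 genes and a median of 0.00. The exception was Pdgfra, at -0.01, while Opalin (1.05), Gsn (1.02), Mag (0.93), Cldn11 (0.91) and Trf (0.91) had the largest differences. No member was called by edgeR (adjusted p from 0.454 to 0.983) or by DESeq2, which called 0.0156% and 0.627% of all genes. Before adjustment 6 members had p under 0.05 by edgeR, against 8.63% of all genes, and 9 by DESeq2, against 8.97%. In 11 members every PS19_HA library was above every WT_HA library, which held for 7.78% of all genes. These were Myrf, Mog, Cldn11, Mal, Opalin, Tspan2, Plekhb1, Trf, Car2, Gsn and Qdpr, of which 10 are among the 21 mature genes. In 10 of the 11 the lowest WT_HA library was replicate 2, the one rich in mitochondrial reads, and Mal was the exception. Replicate 2 was also the lowest in 28 of all 33 members. Whether groups overlapped was set by the highest WT_HA library, which was not replicate 2 in any of the 11.

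Gsn read 29.9, 21.1 and 42.4 CPM in WT_HA replicates 1 to 3 and 46, 63.6 and 80 in PS19_HA. The groups did not overlap, and the gap between them was a few CPM. Its log2 difference was 1.02 (SE 0.29; edgeR adjusted p = 0.454, DESeq2 adjusted p = 0.0873), or 2.02-fold. Cldn11 read 88.7, 49.8 and 108 CPM in WT_HA and 123, 149 and 191 in PS19_HA, a log2 difference of 0.91 (SE 0.30; edgeR adjusted p = 0.47).

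Myrf encodes the membrane-bound factor that turns on myelin genes (ENSMUSG00000036098, chromosome 19, 10208272 to 10240748). It read 55.8, 40.1 and 67.1 CPM in WT_HA and 67.2, 85.9 and 99.8 in PS19_HA, where the highest control and the lowest tau library nearly touched. The log2 difference was 0.63 (SE 0.25; edgeR adjusted p = 0.554). Trf read 8.02, 5.15 and 10.4 CPM against 10.7, 13.2 and 20.6, a log2 difference of 0.91 (SE 0.38; edgeR adjusted p = 0.568). Mbp read 1490, 885 and 1941 CPM in WT_HA and 1823, 2447 and 2567 in PS19_HA, with overlap at PS19_HA replicate 1. Pdgfra, at 69.4, 65.8 and 66.6 CPM against 72, 73.3 and 55.2, and Gpr17, at 29.6, 26.6 and 30.6 against 33.9, 38.4 and 27.9, overlapped.

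**Figure D3:**
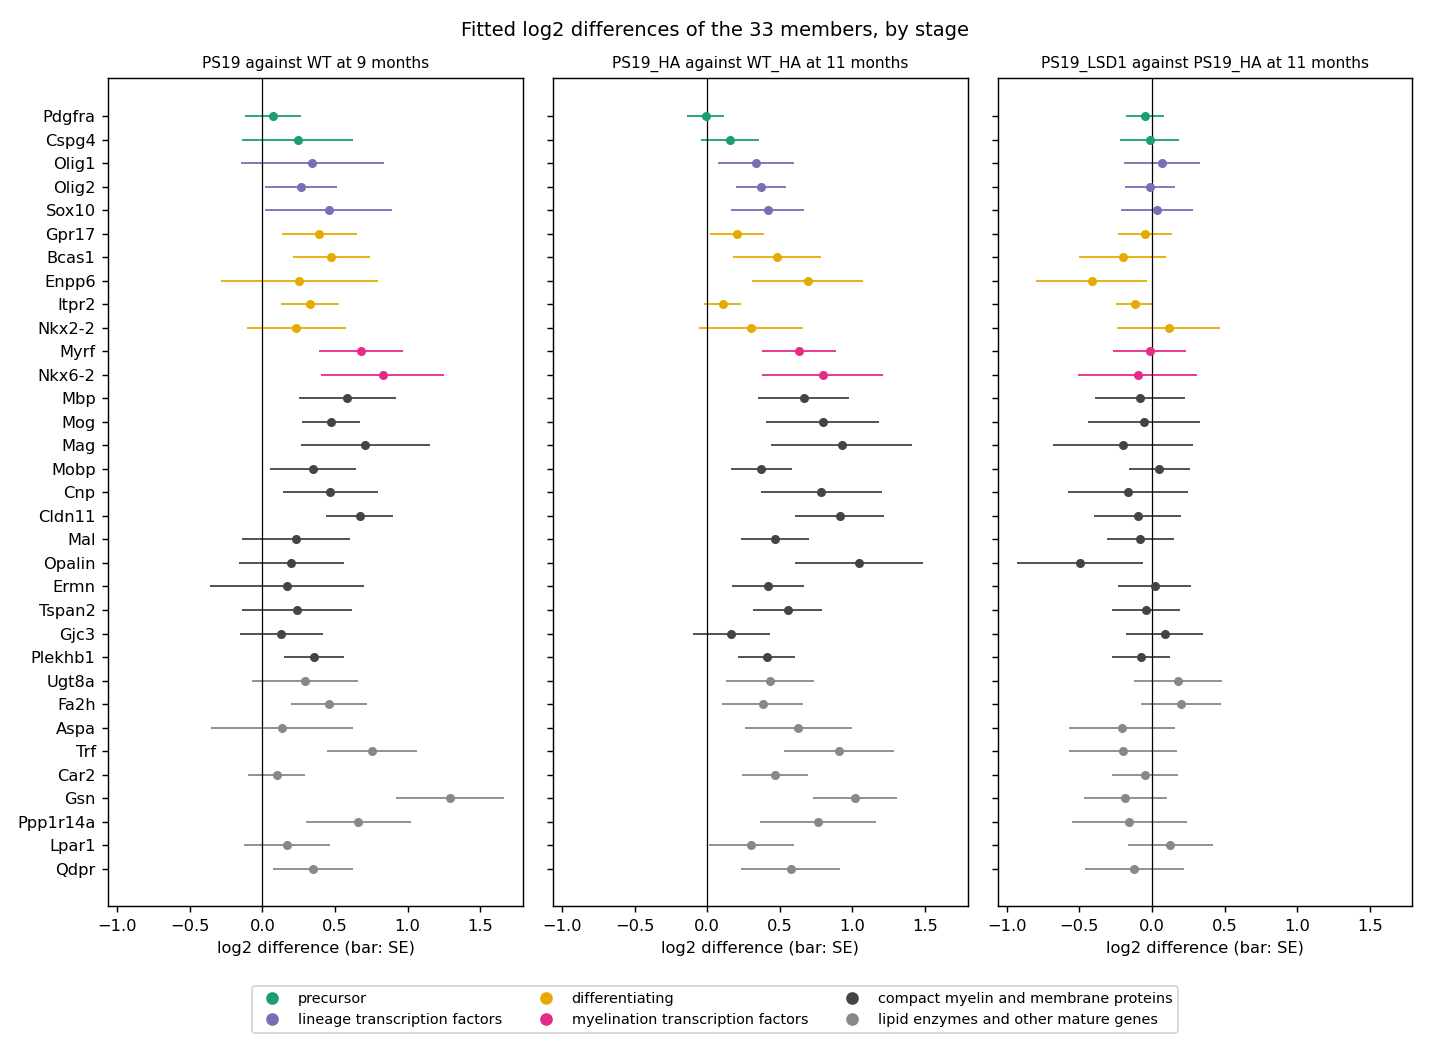
Fitted log2 difference of each member (rows, ordered by stage) in PS19 against WT at 9 months, PS19_HA against WT_HA at 11 months and PS19_LSD1 against PS19_HA, with bars of 1 SE to each side. The tau points lie right of 0 for all 33 members at 9 months and for 32 at 11 months, and the points of the LSD1 virus lie on both sides of 0, from -0.50 for Opalin to 0.20 for Fa2h.

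The difference between the tau effects of the cohorts was tested itself, as the 11-month minus the 9-month difference. It was above 0 for 23 of 33 members (median 0.10), against 53.9% of all genes, and without the libraries rich in mitochondrial reads for 8 of 33 (median -0.13). No member was called by edgeR or DESeq2, which called no gene at all, and 0 members had p under 0.05 before adjustment by either tool, against 0.569% and 0.683% of all genes. Opalin, a glycoprotein of the myelin paranodes, had the lowest p, with 0.85 (SE 0.59; edgeR adjusted p = 1). Its own tau differences were 0.20 at 9 months and 1.05 at 11 months. It read 14.2, 12.7, 19.8 and 21.2 CPM in WT and 18.9, 12.5, 21.5 and 25 in PS19, which overlap, and 14.4, 8.17 and 12.3 in WT_HA against 18.4, 21.5 and 32.2 in PS19_HA, which do not. Car2, the carbonic anhydrase of myelinating glia (0.37, SE 0.30), Itpr2, a calcium release channel (-0.22, SE 0.26) and Mog (0.32, SE 0.42) followed, all with an edgeR adjusted p of 1. Age, virus and sex also differ between the cohorts, and their parts in such a difference cannot be told apart.

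In the libraries labelled PS19_Lsd1het, of which replicate 3 had Kdm1a within the WT range, 29 of 33 members were higher than in WT, with a median of 0.27, against 50.1% of all genes and a median of 0.00. Without replicate 3 of PS19_Lsd1het 26 were higher, with a median of 0.29, and with any 1 library left out 23 to 31. This comparison shares its WT libraries with that of PS19. Gsn was called by DESeq2 at 1.43 (SE 0.38; adjusted p = 0.0392), where 0.547% of all genes were called, and was not called by edgeR (1.45, SE 0.37; adjusted p = 0.379), where 0.00497% were. No other member was called by either. Before adjustment 6 members had p under 0.05 by edgeR (Myrf, Mog, Cnp, Cldn11, Trf and Gsn) and 9 by DESeq2, against 6.31% and 7.45% of all genes. In 4 members (Mog, Cnp, Trf and Gsn) every PS19_Lsd1het library was above every WT library, which held for 3.46% of all genes. The 4 members below 0 were Pdgfra (-0.08), Mal (-0.07), Ermn (-0.26) and Gjc3 (-0.02).

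Gsn read 107, 81, 85.3 and 90.3 CPM in PS19_Lsd1het replicates 1 to 4, all above the highest WT library at 41.2 CPM. Mog read 48.5, 46.7, 62.8 and 51.6 CPM, a log2 difference from WT of 0.67 (SE 0.20; edgeR adjusted p = 0.533). Trf read 23, 19.3, 25.5 and 16.4 CPM, a difference of 0.98 (SE 0.31; edgeR adjusted p = 0.555). Cldn11 read 184, 126, 180 and 165 CPM, and its replicate 2 reached down to the highest WT value of 126. The difference was 0.67 (SE 0.23; edgeR adjusted p = 0.641). Mbp read 3245, 3309, 2669 and 2129 CPM, Gpr17 read 49.1, 26.4, 40.4 and 46.6, and Pdgfra read 67.5, 37.7, 64.4 and 68.8, with a single low library.

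Whether loss of 1 Lsd1 copy went with a different level in tau mice was read from the libraries labelled PS19_Lsd1het against PS19. Members stood on both sides of 0, 17 higher and 16 lower, with a median of 0.00 and a range of -0.43 (Ermn) to 0.26 (Cnp), against 47.4% of all genes higher. The count higher was 15 without the doubted PS19_Lsd1het replicate 3 (median -0.05), 9 without PS19 replicate 3 (-0.09) or PS19_Lsd1het replicate 1 (-0.08), and at most 20 (0.17, without PS19 replicate 1). None was called by edgeR or DESeq2, which called 0% and 0.00497% of all genes. No member had p under 0.05 before adjustment by either tool, against 1.25% and 1.27%, and none had every PS19_Lsd1het library above every PS19 library, which held for 0.393% of all genes. Bcas1, a marker of early myelinating cells, had the lowest p at -0.31 (SE 0.27; edgeR adjusted p = 1), with 246, 179, 323 and 251 CPM in PS19 and 214, 202, 236 and 154 in PS19_Lsd1het. Mog (0.20, SE 0.20), Mobp (-0.27, SE 0.30), a protein of compact myelin, and Mal (-0.30, SE 0.37), a sorting proteolipid, came next, all with an edgeR adjusted p of 1. Mobp read 1090, 898, 1379 and 976 CPM in PS19 and 878, 900, 997 and 838 in PS19_Lsd1het. Mal read 174, 172, 344 and 201 CPM against 151, 132, 219 and 220. In all 4 genes replicate 3 was the extreme PS19 library. The SEs were close to the differences, so differences of this size were not detectable here.

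In Lsd1het mice without the transgene 20 of 33 members were higher than in WT and 13 lower, with a median of 0.25 and a range of -0.97 (Ermn) to 0.75 (Ppp1r14a), against 49% of all genes higher. None was called by edgeR or DESeq2 (0% and 0.00497% of all genes), and none had p under 0.05 before adjustment by either, against 1.28% and 3.09%. In 5 members (Myrf, Mbp, Fa2h, Ppp1r14a and Qdpr) both Lsd1het libraries were above all WT libraries, which held for 4.97% of all genes. In 2 members, Pdgfra (58.6 and 53.2 CPM against 60.2 to 69.5) and Itpr2 (30.9 and 28.3 against 31.6 to 39.9), both lay below all WT libraries, as in 5.76% of all genes. Fa2h, the fatty acid hydroxylase of myelin lipids, read 51 and 36.2 CPM against 32.9, 34, 22.4 and 26.9 in WT (0.58, SE 0.31; edgeR adjusted p = 0.805). Ppp1r14a, a phosphatase inhibitor, read 17.3 and 12.5 CPM against 10.3, 10.8, 6.07 and 8.18 (0.75, SE 0.43). Myrf read 111 and 87.1 CPM against 75.4, 87, 38 and 67.4 (0.56, SE 0.34), and Mbp read 3336 and 2268 CPM (0.64, SE 0.40), each with an edgeR adjusted p of 0.805. In each of these 4 replicate 1 was the higher of the pair, and replicate 2 lay close to the top of WT. Gpr17 read 35.8 and 49 CPM in this group.

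The Lsd1het differences ran with the GC content of the transcripts. Of the 17 members with a GC content of at least 51%, 16 were higher than in WT, and of the 16 below it, 4 were. The Spearman correlation of the difference with GC content was 0.85 over the 33 members, which share libraries and base composition, and it was 0.69 with the libraries rich in mitochondrial reads left out, where 17 of 17 and 8 of 16 were higher. For PS19 against WT it was 0.62, and 0.29 without those libraries, and for PS19_HA against WT_HA it was 0.06 and 0.01. For PS19_Lsd1het against WT it was 0.61, and -0.09 without those libraries, with 17 of 17 and 12 of 16 higher, and 16 of 17 and 15 of 16 without them. For PS19_Lsd1het against PS19 it was 0.39, with 13 of 17 and 4 of 16 higher. Without those libraries the sign turned, to -0.63, with 2 of 17 and 8 of 16 higher. In PS19 against WT and PS19_HA against WT_HA both sets were alike in direction. At 9 months 17 of 17 and 16 of 16 were higher, and at 11 months 17 of 17 and 15 of 16. In size they were less alike at 9 months, with medians of 0.46 and 0.23, and 0.44 and 0.42 without those libraries. At 11 months the medians were 0.57 and 0.47, and 0.31 and 0.39 without those libraries.

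The libraries rich in mitochondrial reads differed from others of their group in the same respect. In WT replicate 3, 14 members lay above and 13 below all other WT libraries. The 14 had a median GC content of 47.5% and the 13 one of 57.6%. The correlation of this library's log2 difference from its group with GC content was -0.81 over the 33 members and -0.76 over 16123 genes. Ermn, an actin-binding protein of myelin with a GC content of 38%, was highest there, at 207 CPM against 34.3, 39.2 and 87. Mag, the sheath's adhesion protein, with a GC content of 57.6%, was at 33.3 CPM against 139, 144 and 137. In PS19 replicate 3, 8 members lay above and 15 below the others (-0.85 over members, -0.74 over 16168 genes). In WT_HA replicate 2, 2 lay above and 28 below (-0.29 over members, -0.41 over 15968 genes). Below their group in all 3 were 11 members, Cspg4, Olig1, Gpr17, Myrf, Nkx6-2, Mbp, Mag, Cnp, Gsn, Ppp1r14a and Qdpr. Bcas1 alone was above in all 3. The shares of all genes that lay above or below in these libraries are not given here, so these counts only describe the members.

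**Figure D4:**
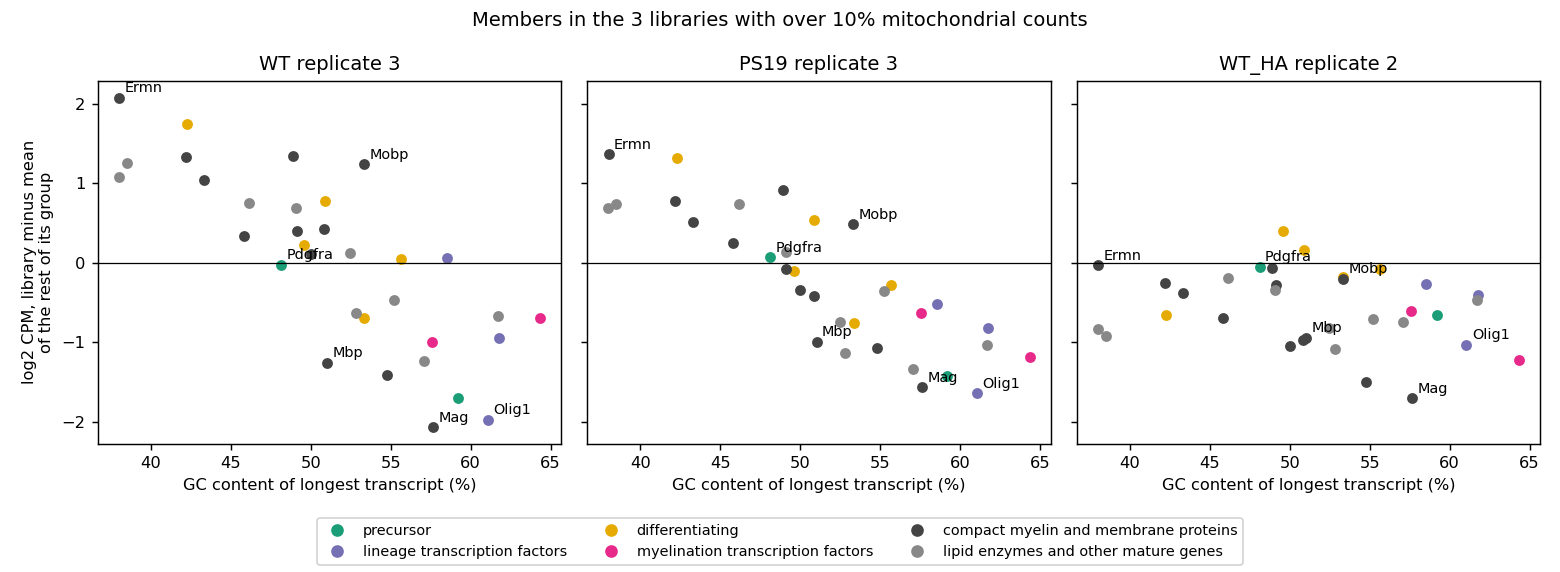
Log2 CPM of each member in the 3 libraries rich in mitochondrial reads minus the mean of the other libraries of their group, against the GC content of its transcript in percent. Points fall with GC content in WT replicate 3 (Spearman -0.81) and PS19 replicate 3 (-0.85), and most points lie below 0 in WT_HA replicate 2, where 28 of 33 members were below the group.

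Without these 3 libraries, 33 of 33 members were still higher in PS19 than in WT, with a median of 0.44 and 9 members with p under 0.05 before adjustment. PS19_Lsd1het against WT then had 31 higher and a median of 0.41, and PS19_HA against WT_HA had 31 higher and a median of 0.38, with 3 members under 0.05. At 9 months, replicates 1 and 2 of each group fitted alone gave 33 members higher in PS19 than in WT (median 0.53), and replicates 3 and 4 alone gave 30 (0.32). For PS19_Lsd1het against WT these were 30 (0.64) and 21 (0.29). In PS19_Lsd1het against PS19, without the 3 libraries rich in mitochondrial reads, 10 were higher, with a median of -0.07, and no member was called by edgeR in any of these fits.

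With the replicate number as a block, in the comparisons where same-numbered libraries deviated together, no member was called by edgeR either. The counts of members with p under 0.05 before adjustment then were 13 in PS19 against WT, 15 in PS19_Lsd1het against WT, 24 in PS19_HA against WT_HA and 17 in PS19_LSD1 against WT_HA, against 7.65%, 17.2%, 11.9% and 6.13% of all genes. Between PS19_Lsd1het and PS19 the count stayed at 0, against 3.03%. The pairs were inferred from these data, and the lowest correlation of PS19_HA with WT_HA was 0.101, against a cut of 0.1. Sex-linked genes read as opposite sexes in the WT_HA and PS19_LSD1 pairs of replicates 1 and 3. The block was fitted over all libraries of a cohort, including groups not taken as paired with each other.

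Whether the LSD1 virus went with a different level in tau mice was read from PS19_LSD1 against PS19_HA. Here 9 of 33 members were higher and 24 lower, with a median of -0.05 and a range of -0.50 (Opalin) to 0.20 (Fa2h), against 48.2% of all genes higher. No member was called by edgeR or DESeq2 (0% and 0.0156% of all genes), and none had p under 0.05 before adjustment by either, against 1.81% and 1.8%. In no member was every PS19_LSD1 library above PS19_HA, which held for 3.41% of all genes. Opalin read 15.1, 7.41 and 28.5 CPM in PS19_LSD1, a log2 difference from PS19_HA of -0.50 (SE 0.44; edgeR adjusted p = 1). Enpp6, a phosphodiesterase of newly formed oligodendrocytes, read 9.29, 7.04 and 17.8 CPM against 9.77, 16.4 and 19.5 (-0.42, SE 0.38). Itpr2 read 35.2, 35.3 and 33.6 CPM against 36, 40 and 37.1 (-0.12, SE 0.13) and was the 1 member whose groups did not overlap, all LSD1 libraries being lower, as in 3.74% of all genes. Fa2h read 27.9, 23.9 and 45.6 CPM against 23.8, 29.2 and 32.1 (0.20, SE 0.28). The edgeR adjusted p of each was 1.

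A single library carried much of this group. In PS19_LSD1 replicate 3 the mature genes averaged 7.11 on the log2 scale, the highest of all 23 libraries, and in replicates 1 and 2 they averaged 6.35 and 6.10. Kdm1a was lowest of the 3 in that library, at 1727 CPM against 10808 and 2954. Without replicate 3, 0 of 33 members were higher than in PS19_HA, the median was -0.36, and 5 had p under 0.05 before adjustment. Leaving out another library turned the sign: 26 of 33 were higher without PS19_LSD1 replicate 2 (median 0.07), 23 without PS19_HA replicate 3 (0.06) and 19 without PS19_LSD1 replicate 1 (0.04). The direction of this comparison therefore turned on which libraries were included.

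Against WT_HA, the PS19_LSD1 libraries had 31 of 33 members higher, with a median of 0.44, against 50.3% of all genes. The comparison shares WT_HA with that of PS19_HA. None was called by edgeR or DESeq2 (0.0207% and 0.0933% of all genes), and before adjustment 3 had p under 0.05 by edgeR (Myrf, Cldn11 and Gsn) and 5 by DESeq2, against 4.01% and 4.34%. In 3 members (Olig2, Cldn11 and Gsn) the groups did not overlap, against 5.78% of all genes. Gsn read 52.5, 44 and 70.1 CPM in PS19_LSD1 (0.83, SE 0.29), Cldn11 read 133, 108 and 191 (0.81, SE 0.30) and Myrf read 75.6, 63.1 and 111 (0.61, SE 0.25). Tspan2, a tetraspanin of the sheath, read 161, 115 and 220 CPM against 113, 103 and 133 in WT_HA (0.51, SE 0.24). The edgeR adjusted p of these 4 was 0.864. Mbp read 1736, 1734 and 2970 CPM, Pdgfra read 63.1, 58.6 and 72.3, and Gpr17 read 24.1, 39.8 and 32.7. Without PS19_LSD1 replicate 3 the count higher was 26 and the median 0.13, and without WT_HA replicate 2 they were 31 and 0.35.

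Counts of members with p under 0.05 in the tau comparisons also turned on single libraries. For PS19 against WT there were 5, against 11 without PS19 replicate 3, 3 without WT replicate 4 and 1 without PS19 replicate 1, and 28 to 33 members were higher with any 1 library left out. For PS19_HA against WT_HA there were 6, against 15 without WT_HA replicate 3, 10 without PS19_HA replicate 1, 3 without WT_HA replicate 1 or WT_HA replicate 2, 2 without PS19_HA replicate 2 and 1 without PS19_HA replicate 3, with 31 to 33 higher throughout. In Lsd1het, 13 of 33 members were higher than in WT without replicate 1 of that pair and 22 without replicate 2.

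Genes of the lineage outside the 33 were read from fixed lists. All 27 of the other myelin genes were higher in PS19 than in WT and in PS19_HA than in WT_HA, with medians of 0.43 and 0.53, against 46.5% and 50.5% of all genes higher. None was called by edgeR or DESeq2, and 4 had p under 0.05 by edgeR before adjustment in each comparison, against 3.91% and 8.63% of all genes. Cryab, a small heat shock protein, was at 86.7 CPM against 52 (0.73, SE 0.23), Dock5 at 19.4 against 12.2 (0.67, SE 0.21) and Apod, a lipid carrier, at 201 against 85.5 (1.23, SE 0.40) in PS19 and WT, with edgeR adjusted p of 0.495, 0.525 and 0.58. Of the 12 other precursor genes, 7 were higher in PS19 than in WT, with a median of 0.02, and 1 of 12 in PS19_HA than in WT_HA, with a median of -0.15. Cacng4 (-0.41, SE 0.23), Pcdh15 (-0.39, SE 0.38) and Neu4 (0.21, SE 0.22) had the lowest p at 9 months, and none of the 12 was called in any comparison. The mean log2 level of the 27 myelin genes minus that of these 12 was -0.06 ± 0.26 in WT. It was 0.36 ± 0.31 in PS19 and 0.53 ± 0.36 in PS19_Lsd1het (SD, n = 4), and 0.41 ± 0.30 in Lsd1het (n = 2). At 11 months it was -0.30 ± 0.42 in WT_HA, 0.40 ± 0.28 in PS19_HA and 0.26 ± 0.39 in PS19_LSD1 (n = 3). Every PS19_Lsd1het and Lsd1het library lay above WT, and every PS19_HA library above WT_HA. PS19 overlapped WT, PS19_LSD1 overlapped WT_HA, and no difference was tested. Of the 9 other differentiation genes that passed the filter, out of 10, 6 and 7 were higher in the tau groups at 9 and 11 months, with medians of 0.24 and 0.09. Zfp488, Bmp4 and Lims2 had the lowest p among them at 9 months, at 0.57 (SE 0.26), 0.58 (SE 0.41) and 0.43 (SE 0.38).

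The 11 genes described in disease-associated oligodendrocytes were higher in all 11 cases in both tau comparisons, with medians of 1.31 and 1.16. By edgeR none was called. By DESeq2, 3 rose at 9 months and 4 at 11 months, against 0.949% and 0.627% of all genes called in either direction. At 9 months these were the complement gene C4b (308 against 39.5 CPM; DESeq2 adjusted p = 0.000751) and the class I antigen genes H2-D1 (119 against 21.8; 0.00376) and H2-K1 (89.5 against 18.1; 0.0147). Microglia and astrocytes also express many of these 11. In PS19_LSD1 against PS19_HA 0 of the 11 were higher, with a median of -0.47, and none was called.

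Markers of other cells and regions moved beside the members. The 11 microglia markers summed to 299 to 378 CPM in WT and 391 to 1378 in PS19, with 10 of 11 higher (median 1.27), and to 290 to 361 in WT_HA and 354 to 862 in PS19_HA (10 of 11; 0.99). The microglia sum in PS19 replicates 1 to 4 was 1378, 452, 391 and 1240 CPM, the order in which Gsn ran there. Gsn also ran in the order of that sum in PS19_HA and Lsd1het, but not in WT, WT_HA, PS19_Lsd1het or PS19_LSD1. Any link between Gsn and that sum was not tested. The 8 choroid plexus markers summed to 72.3 to 2147 CPM in WT and 292 to 2338 in PS19. At 11 months WT_HA had 42.4 to 957 CPM, PS19_HA had 390 to 3621 and PS19_LSD1 had 97.8 to 1970, with 8 of 8 higher in both tau comparisons (medians 0.81 and 2.26). The 8 striatum markers summed to 138 to 276 CPM in WT and 61.4 to 157 in PS19, with 0 of 8 higher (-1.39), and to 88.6 to 361 in WT_HA and 86 to 225 in PS19_HA, with 1 of 8 higher (-0.67). All 9 neuron markers were lower in both tau comparisons (-0.28 and -0.27), with sums of 8647 to 12148 CPM in WT and 6764 to 9794 in PS19. Thalamus markers, for a neighbour rich in myelin, had medians of 0.18 and 0.01, and summed to 98 to 243 CPM in WT and 92.1 to 201 in PS19. Their sum was 806 CPM in PS19_Lsd1het replicate 2, the library with the lowest Pdgfra, against 104 to 126 in the others of that group. In replicates 1 to 3 it was 105, 147 and 456 CPM in WT_HA, 190, 132 and 380 in PS19_HA and 133, 134 and 613 in PS19_LSD1. The library with the highest thalamus sum was in each of these 3 groups also the one with the highest mature level (6.38, 6.93 and 7.11). In PS19 and Lsd1het the same held for replicate 1. It did not hold in WT, with thalamus highest in replicate 3 and the mature level in replicate 4. In PS19_Lsd1het the mature level of replicate 2 was 6.62, below 6.67 and 6.83 in replicates 1 and 3. Replicate 3 of WT_HA, PS19_HA and PS19_LSD1 also had the highest striatum sum of its group, at 361, 225 and 312 CPM. The 8 neocortex markers had medians of -0.12 and 0.38, and the 8 astrocyte markers 0.43 and 0.37. The 10 markers of pericytes and fibroblasts, which share Pdgfra expression in part, summed to 218 to 289 CPM in WT and 231 to 329 in PS19. Of these, 8 of 10 were higher in PS19 than in WT (median 0.26), and 3 of 10 in PS19_HA than in WT_HA (-0.17). No marker of these lists was at 0 throughout a group.

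The same lists also differed in the Lsd1 comparisons. In PS19_Lsd1het against WT 10 of 11 microglia markers (median 1.30) and 8 of 8 choroid plexus markers (0.66) were higher, and 8 of 9 neuron markers lower (-0.55). In PS19_LSD1 against PS19_HA 10 of 11 microglia markers (-0.61), 8 of 8 choroid plexus markers (-1.36) and 8 of 8 astrocyte markers (-0.22) were lower, and 6 of 8 thalamus markers were higher (0.33). In Lsd1het against WT 8 of 9 neuron markers (-0.38) and 7 of 8 striatum markers (-1.52) were lower. The part of these and the preceding shifts in the levels of the 33 genes was not tested.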

How the data were processed

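RNA of mouse hippocampus was poly(A)-selected and sequenced in 23 libraries of 7 groups, whose group and replicate number came from the sample titles. Per the submitters' processing notes, the authors used FastQC 0.11.7, Trimmomatic 0.36.5, HISAT2 2.1.0, featureCounts 1.6.0.6 and DESeq2 2.11.40.2 with build GRCm38. Which annotation release and strand setting were used, and how reads with several alignments were handled, was not given in the sources used here, so genes that overlap others are uncertain. Each library's deposited file lists raw whole-number counts by gene, without normalization, with totals of 15451494 to 24644977.

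Of 54232 identifiers 54165 were found in GENCODE (GRCm38), the source of symbols, exon lengths and GC content, and promoters came from RefSeq (GRCm38.p6). CPM were scaled by TMM, and log2 levels used a prior count of 2. Each comparison was fitted on all genes by edgeR 4.0.16's quasi-likelihood test (R 4.3.3; filterByExpr with minimum count 10 and minimum total 15; robust), 14 libraries at 9 months, 9 at 11 months and 23 for the difference between cohorts. Calls had a Benjamini-Hochberg adjusted p under 0.05 over all genes tested, by edgeR or by DESeq2 1.42.0, and every log2 difference is the first-named group minus the second. The fit was also run on simulated counts, with changes larger than those of the members and without the shifts between libraries described above. That run therefore says nothing of differences of the size found for the members.

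The 33 members, the other lists and the tests were chosen with earlier results of these data known. Named were Pdgfra, Gpr17 and Mbp, and in each comparison the 4 members with the lowest edgeR p, called or not, plus every called member and, of other lists, up to 3 genes with the lowest p in PS19 against WT. Members named for the range, for overlap or for GC content were chosen after their values were seen.

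Same-numbered libraries of 2 groups were taken as pairs where every deviation from the group means correlated above 0.1 between them. With WT the correlations were 0.485 to 0.807 (PS19) and 0.301 to 0.524 (PS19_Lsd1het), and between both tau groups of that cohort 0.289 to 0.467. With WT_HA they were 0.101 to 0.277 (PS19_HA) and 0.111 to 0.444 (PS19_LSD1). Not taken as paired were Lsd1het with WT (0.0316 to 0.0608) and PS19_LSD1 with PS19_HA (0.0632 to 0.23). The pairing comes from the data, since no label says what a number marks.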

Additional observations from a re-analysis of the deposited data

Results flagged for a closer look

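In groups of 4 libraries, the highest or lowest value was set against the others by Dixon's test for the 33 members and for 4 stage levels, which made 111 tests. Chance flags about 1 in 20, and 10 were flagged. In 5 of the 10 the library was WT replicate 3, in which mitochondrial genes took 33.9% of the counts. Mbp was at 879.2 CPM there against 2068 to 2150 in the other WT libraries, Mag at 33.27 against 136.7 to 144.1 and Cnp at 85.43 against 216.8 to 243.3. Car2 was at 257.4 CPM, above the others at 152.7 to 168.3, and the precursor level was 4.534 on the log2 scale against 5.325 to 5.439. Mal was at 343.6 CPM in PS19 replicate 3, which is also rich in mitochondrial reads, against 172.1 to 201.1 in the other PS19 libraries.

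The other 4 were in libraries with few mitochondrial reads. Plekhb1 stood at 428.8 CPM in PS19 replicate 1 against 334.8 to 348.1, and the level of the differentiating genes at 4.603 in PS19 replicate 2 against 5.102 to 5.168. Pdgfra was at 37.69 CPM in PS19_Lsd1het replicate 2 against 64.44 to 68.82, and Lpar1 at 43 CPM in PS19_Lsd1het replicate 3 against 30.85 to 31.72.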

How the results depend on the processing

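No member was called by edgeR under any alternative run, which says little of stability since edgeR called 0 to 4 of all genes in a comparison, and 1, Gsn in PS19_Lsd1het against WT, was called by DESeq2 (1.434, adjusted p = 0.0392). The median of the 21 mature genes was 0.35 for PS19 against WT and 0.38 for PS19_Lsd1het against WT, and 0.6493 and 0.6496 within replicates 1 and 2, a split chosen after seeing the data. For Lsd1het against WT it ran from -0.1687 without replicate 1 of that pair to 0.566 without replicate 2. With 1 library left in a group, that library is assumed to vary like the other groups. Fa2h in PS19_LSD1 against PS19_HA was -0.1394 without PS19_LSD1 replicate 3, and the difference of Mog between the cohorts' tau effects was -0.05666 without the libraries rich in mitochondrial reads. The cause of these shifts was not tested. Of the other values, 108 medians and 14 stage levels moved by less than the spread between libraries, and 461 values of named genes kept their direction and call.

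With the replicate block the median of the 33 members was 0.35 for PS19 against WT, 0.34 for PS19_Lsd1het against WT and 0.47 for PS19_HA against WT_HA. It changed no call by edgeR. For the comparisons that were not taken as paired, the block gave 26 of 33 members higher in Lsd1het than in WT and 8 of 33 higher in PS19_LSD1 than in PS19_HA. A fit with sex as a covariate gave 32 of 33 higher in PS19_HA than in WT_HA.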
